A study of Saccharomyces cerevisiae with 6 samples.

Results

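Rapamycin, an inhibitor of the growth kinase complex TORC1, was compared with its solvent control in budding yeast, Saccharomyces cerevisiae. The comparison used 4 of the 6 Affymetrix arrays of the study: 2 from cells given 200 nM rapamycin and 2 from cells given 1% DMSO, each for 3 hours. Both groups came from cells labelled BY4741, a haploid laboratory strain, diluted to an OD600 of 0.05 in 10 mL of the rich medium YPD and treated at an OD600 of 0.2. The remaining 2 arrays came from cells given 20 µM of a compound coded CID 3528206. They entered only the estimate of the spread and the mean levels by which probe sets were chosen and genes ranked. The sources used here do not state whether DMSO was also added with rapamycin. The labels speak of duplicates, without stating separate cultures, so each p-value rests on the spread between these arrays alone, which may be technical. All probe sets that name 1 S. cerevisiae gene were taken, the one with the highest mean where a gene had several, which gave 5449 genes from the 10928 probe sets of the array. Each value is a deposited log2 RMA value, a probe set summary on a log2 scale after the arrays were set to a common distribution, so a difference of 1 is 2-fold and every level is relative to the other transcripts on its array.

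TORC1 promotes growth while amino acids and ammonium are plentiful, and rapamycin blocks it. Active TORC1 favours the making of ribosomes and helps to hold the GATA activators Gln3 and Gat1 in the cytoplasm, where Ure2 binds Gln3. When it is inhibited, these activators enter the nucleus and switch on genes for poorer nitrogen sources, a control known as nitrogen catabolite repression. TORC1 also restrains the kinase Rim15, stress transcription factors and autophagy. These are background facts and not results of the arrays described here.

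The labelled strain did not match several marker genes. BY4741 is an a-mating haploid that lacks HIS3, LEU2, MET17 and URA3, yet these 4 genes lay between 10.39 and 12.11 in the 4 arrays, far above the background of 4.27 to 4.38. That background is the 95th percentile, per array, of 1746 probe sets for another yeast, S. pombe. Genes of alpha cells lay between 9.49 and 13.47, and the 7 measured genes of a cells between 4.89 and 8.24. The cells are therefore called only by their label. Replicate arrays differed by a standard deviation of 0.123 for DMSO and 0.122 for rapamycin, against 0.267 for CID 3528206. Control probe sets at the 3′ ends of 7 yeast genes exceeded those at the 5′ ends, a sign of RNA quality, by a mean of 1.07 and 0.91 in the DMSO arrays and of 1.14 and 0.995 in the rapamycin arrays, so the groups overlapped. In the CID 3528206 arrays, which enter the estimate of the spread, the same mean was 1.69 and 1.02. Of the genes tested, 5350 lay above background in all 4 arrays.

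More than 50% of the genes measured differed between rapamycin and DMSO at this time. With limma and a Benjamini-Hochberg adjusted p under 0.05, 1446 genes were higher after rapamycin (26.5% of those tested) and 1427 were lower (26.2%), together 52.7%. Counts given below for groups of genes are to be read against these shares of all genes. Fewer passed when 1 array was left out, 1794 to 1820 in all, with 961 to 1006 higher and 795 to 854 lower, and 1593 genes passed whichever array was missing. Changes of at least 2-fold were more often rises, with 326 genes higher (5.98%) and 135 lower (2.48%). Of these 461 genes, 454 passed whichever array was left out. At least 4-fold changes were 83 rises and 22 falls, and at least 8-fold changes 30 rises and 5 falls. The median called gene moved by 0.52 on the log2 scale and the median over all genes was -0.02, with the middle of the distribution between -0.28 and 0.32. The arrays of the groups did not overlap for 4626 genes (84.9%), among them every called gene, so a lack of overlap adds nothing to a call. Each value after ± is the limma standard error of a log2 difference (n = 2 arrays per group), with a median of 0.09 over genes.

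Rises of at least 2-fold were more frequent among genes of low signal. In the fifth of genes with the lowest mean level, 109 rose and 31 fell at least 2-fold, and in the fifth with the highest level 53 rose and 25 fell. For 7 of the genes that rose 2-fold, both DMSO arrays lay below the background, so the size of their change is poorly measured. No gene that fell 2-fold lay below it in both rapamycin arrays.

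**Figure D1:**
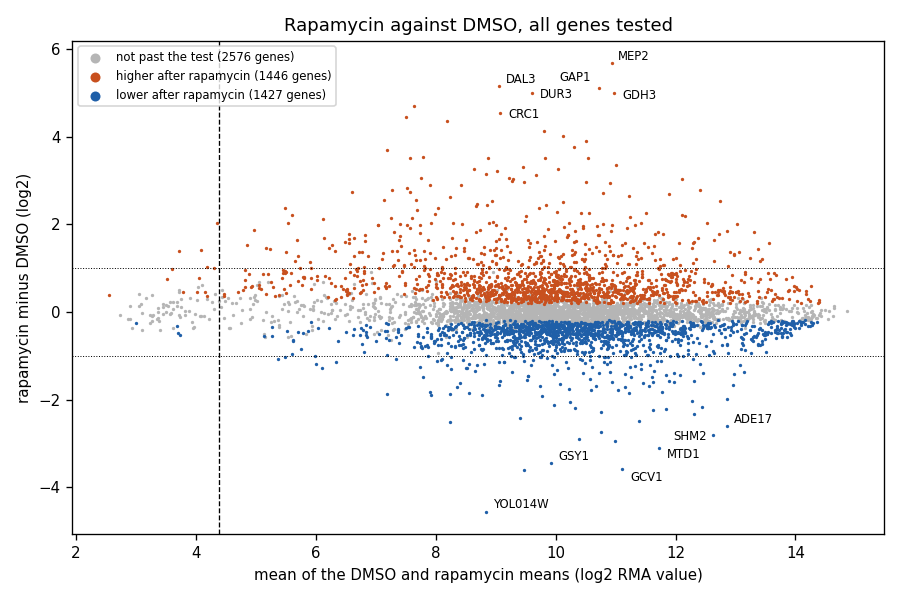
Log2 difference, rapamycin minus DMSO, of each of 5449 genes against its mean level (log2 RMA value). Orange points rose and blue points fell at an adjusted p under 0.05, the dotted lines mark 2-fold, and the dashed line is the highest S. pombe background of the 4 arrays (4.38); the largest rises exceed the largest falls.

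The largest rise belonged to MEP2, a high-affinity ammonium permease and ammonium sensor. Its level was 8.04 and 8.15 in the DMSO arrays and 13.78 and 13.76 in the rapamycin arrays. All 3 ammonium permease genes rose, MEP2 by 5.68 ± 0.07, MEP1 by 2.97 ± 0.08 and the low-affinity MEP3 by 1.08 ± 0.09. The smallest of these, MEP3, lay at 10.79 and 10.80 against 11.90 and 11.86 (DMSO against rapamycin). In any bulk RNA sample, fewer cells of a kind and less RNA per cell cannot be told apart, and this holds for all differences given here.

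Genes for allantoin and urea, purine breakdown products that serve as nitrogen stores, rose together. All 9 measured genes passed, with a median of 3.13 against -0.02 over all genes. DAL3, the ureidoglycolate lyase, lay at 6.45 and 6.52 in the DMSO arrays and 11.63 and 11.62 in the rapamycin arrays, a rise of 5.15 ± 0.08. The urea permease DUR3 lay at 7.20 and 7.02 against 12.14 and 12.04 in the same order, and the allantoate permease DAL5 at 8.59 and 8.51 against 12.43 and 12.48. Neither pair of groups came near the other. The remaining enzymes also rose: the malate synthase DAL7 by 3.25 ± 0.10, the allantoicase DAL2 by 3.13 ± 0.07, the allantoin permease DAL4 by 2.03 ± 0.10 and the allantoinase DAL1 by 1.4998 ± 0.13. DAL1, DAL4 and DAL2 lie next to each other on chromosome IX and each rose at least 2-fold. The activators of these genes moved less, DAL82 by 0.55 ± 0.11 and DAL81 by 0.21 ± 0.07. The call for DAL82 was lost without DMSO replicate 1 or rapamycin replicate 2 (limma adjusted p 0.000651 to 0.0523 over the alternatives). DAL81 did not pass whichever of the 4 arrays was left out (limma adjusted p 0.0153 to 0.238 over the alternatives).

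Among the GATA factors, which bind the promoters of nitrogen genes, the repressor DAL80 rose most. It lay at 5.16 and 5.43 in the DMSO arrays and 9.96 and 10.02 in the rapamycin arrays, a rise of 4.70 ± 0.16. The activator GAT1 lay at 8.83 and 8.95 against 11.10 and 11.20 and rose by 2.27 ± 0.17, while its partner GLN3 rose by 0.82 ± 0.07. GZF3, the second repressor, rose by 1.57 ± 0.10, so both activators and both repressors moved in 1 direction. URE2, whose product retains Gln3, differed by 0.15 ± 0.12 and did not pass (adjusted p = 0.298, limma).

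The enzymes that make and break down glutamate rose, and the glutamate dehydrogenases did so unequally. GDH3 rose by 5.003 ± 0.09 and GDH1, the isozyme dominant on glucose, by 1.57 ± 0.06. GDH3 lay at 8.48 and 8.46 in the DMSO arrays and 13.40 and 13.55 in the rapamycin arrays, and GDH1 at 12.78 and 12.77 against 14.34 and 14.36 in the same order. The groups lay apart for both, as for every called gene. The NAD-dependent dehydrogenase GDH2, which releases ammonium, rose by 1.77 ± 0.15 and the glutamate synthase GLT1 by 1.24 ± 0.11. GLN1, the glutamine synthetase, differed least at 0.26 ± 0.06. The call for GLN1 was lost with any 1 of the 4 arrays left out (limma adjusted p 0.000295 to 0.108 over the alternatives).

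Among genes for the use of proline, γ-aminobutyrate (GABA) and arginine, the largest rises were those of proline and GABA genes. The proline permease PUT4 lay at 5.78 and 5.86 in the DMSO arrays and 9.34 and 9.34 in the rapamycin arrays. The GABA permease UGA4 rose by 3.31 ± 0.08, its regulator UGA3 by 1.73 ± 0.10, and the enzymes UGA2 and UGA1 by 1.505 ± 0.09 and 1.08 ± 0.07. The first enzyme of proline breakdown, PUT1, rose by 2.19 ± 0.09, but the second, PUT2, differed by -0.22 ± 0.08 and did not pass. For arginine, the arginase CAR1 differed by 0.00 ± 0.15 and did not pass, and the ornithine transaminase CAR2 rose by 0.28 ± 0.08. Together 7 of 12 genes of this list were higher and 0 lower, with a median of 0.75. CAR2 did not pass without any single DMSO or rapamycin array (limma adjusted p 0.00894 to 0.155 over the alternatives).

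Of 15 further genes for scavenging nitrogen, 13 rose (9 to 11 without 1 array) and 0 fell, with a median of 0.77. The general amino acid permease GAP1 lay at 8.18 and 8.17 in the DMSO arrays and 13.31 and 13.25 in the rapamycin arrays, and the broad permease AGP1 rose by 3.03 ± 0.06. The amidase AMD2 rose by 3.35 ± 0.06, the vacuolar carboxypeptidase CPS1 by 2.01 ± 0.11 and the vacuolar permease VBA1 by 1.78 ± 0.07. NPR1, the kinase that stabilises permeases at the plasma membrane, rose by 1.55 ± 0.08. Genes for peptides and glutathione moved in both directions, 5 up (2 to 3 without 1 array) and 5 down of 11. The peptide transporter PTR2 rose by 1.30 ± 0.10 and ECM38, which breaks glutathione down, by 1.20 ± 0.08. The glutathione and oligopeptide transporters OPT1 and OPT2 differed by -1.56 ± 0.20 and -1.13 ± 0.18, and GSH1 and GSH2, which make glutathione, by -1.01 ± 0.09 and -0.68 ± 0.07. DUG2 also fell (-0.62 ± 0.14), and the other rises were UBR1, CUP9 and DUG1 at 0.39 ± 0.12, 0.39 ± 0.12 and 0.30 ± 0.08. The call for DUG2 was lost without DMSO replicate 1 or either rapamycin array (limma adjusted p 0.000305 to 0.0687 over the alternatives). UBR1 did not pass without DMSO replicate 2 or either rapamycin array (limma adjusted p 0.00387 to 0.18 over the alternatives). The calls for CUP9 and DUG1 were lost without any single DMSO or rapamycin array (limma adjusted p 0.0019 to 0.16 for CUP9 and 0.00271 to 0.127 for DUG1 over the alternatives).

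**Figure D2:**
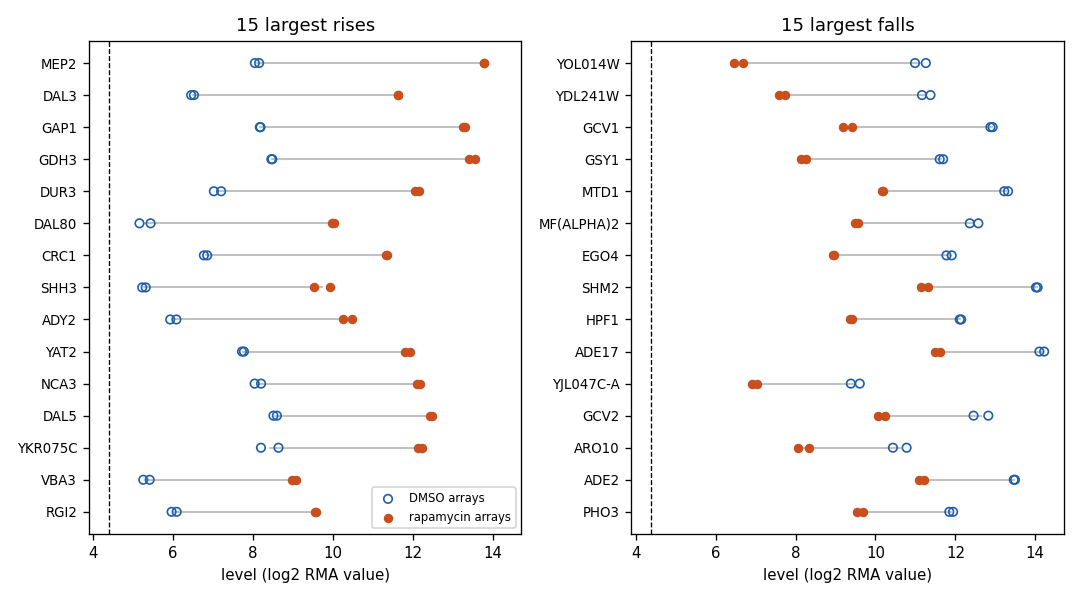
Levels (log2 RMA value) of the 15 largest rises and the 15 largest falls in the 2 DMSO arrays (open blue circles) and the 2 rapamycin arrays (filled orange circles). Grey lines join the group means and the dashed line is the S. pombe background (4.38). The 30 genes were chosen among called genes whose groups do not overlap, and MEP2 moves from 8.04 and 8.15 to 13.78 and 13.76.

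The carnitine shuttle, which carries acetyl units between compartments, rose as a group. Of its 6 genes 5 were higher, each at least 2-fold, with a median of 2.40. The mitochondrial carrier CRC1 lay at 6.77 and 6.85 in the DMSO arrays and 11.33 and 11.34 in the rapamycin arrays, and the carnitine acetyltransferase YAT2 at 7.72 and 7.77 against 11.81 and 11.91 in the same order. YAT1 and CAT2, the other transferases, rose by 2.44 ± 0.10 and 2.37 ± 0.07, and the carnitine permease AGP2 by 1.11 ± 0.10. The exception was HNM1, a choline permease that also takes up carnitine, at -0.61 ± 0.07.

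Genes that let cells grow on acetate, lactate or ethanol also rose. Of 15 genes of the glyoxylate cycle and gluconeogenesis, 13 were higher and 0 lower, with a median of 2.06. ADY2, an acetate permease, lay at 5.92 and 6.08 in the DMSO arrays and 10.48 and 10.25 in the rapamycin arrays, and the lactate permease JEN1 at 7.02 and 7.22 against 10.72 and 10.56. The glyoxylate enzymes ICL1 and MLS1 rose by 2.96 ± 0.14 and 2.74 ± 0.10. Gluconeogenic PCK1 and FBP1 rose by 2.08 ± 0.14 and 1.80 ± 0.13. The 2 genes that did not pass were ACO1 (0.29 ± 0.11), the aconitase, and PYC2 (-0.12 ± 0.13), a pyruvate carboxylase whose isozyme PYC1 rose by 2.52 ± 0.10.

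Regulators of this programme moved in both directions. Of 21 genes of the Snf1 kinase and its targets, 9 rose and 5 fell (3 without 1 array), with a median of 0.13 that became -0.09 without the third of genes lowest in mean level. The activators CAT8, SIP4 and ADR1 rose by 1.42 ± 0.10, 1.97 ± 0.16 and 1.86 ± 0.08. The glucose repressors MIG1, MIG2 and MIG3 rose as well, by 1.31 ± 0.15, 2.51 ± 0.18 and 0.75 ± 0.08. The kinase subunits went the other way or did not pass: SNF4, the activating subunit, differed by -0.65 ± 0.06, GAL83, a targeting subunit, by -0.86 ± 0.07, and the catalytic SNF1 by -0.18 ± 0.10 without passing. HAP4, the limiting activator of respiratory genes, differed by -0.63 ± 0.07. The other genes that fell were HAP3 (-0.27 ± 0.08) and RDS2 (-0.26 ± 0.09). HAP3 and RDS2 did not pass whichever of the 4 arrays was left out (limma adjusted p 0.00651 to 0.183 for HAP3 and 0.0123 to 0.246 for RDS2 over the alternatives).

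Glycolysis changed little. Of 26 genes of glycolysis and fermentation 18 did not pass, 3 rose and 5 fell (2 without 1 array), with a median of -0.09. The pyruvate kinase CDC19 lay at 14.56 and 14.52 in the DMSO arrays and 14.57 and 14.55 in the rapamycin arrays, which overlap. TDH3 and PGK1, which encode abundant glycolytic enzymes, differed by 0.01 ± 0.06 and -0.15 ± 0.06 and did not pass. The 3 that rose were isozymes of ethanol metabolism, ADH2 (2.03 ± 0.14), which oxidises ethanol, PDC6 (1.49 ± 0.12), a minor pyruvate decarboxylase, and ALD4 (0.97 ± 0.14), a mitochondrial aldehyde dehydrogenase. The falls were ADH5 (-1.37 ± 0.12), ADH4 (-0.71 ± 0.07), PYK2 (-0.45 ± 0.12), GLK1 (-0.31 ± 0.08) and ENO2 (-0.23 ± 0.07). The calls for PYK2, GLK1 and ENO2 were lost with any 1 of the 4 arrays left out (limma adjusted p 0.00098 to 0.12 for PYK2, 0.00254 to 0.103 for GLK1 and 0.00107 to 0.149 for ENO2 over the alternatives).

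Hexose transporters moved gene by gene. HXT5, a transporter of slow-growing cells, lay at 7.05 and 6.79 in the DMSO arrays and 9.55 and 9.54 in the rapamycin arrays, and HXT3 rose by 0.83 ± 0.07, while HXT1, the low-affinity transporter of high glucose, differed by -0.70 ± 0.08 and the galactose permease GAL2 by -0.65 ± 0.08. Of 15 genes 5 rose (2 to 4 without 1 array) and 3 fell, and the median of 0.06 became -0.04 after quantile normalization of the tested genes. The other calls were HXT2 (0.46 ± 0.09), HXT10 (0.45 ± 0.14) and HXT4 (0.30 ± 0.07) among the rises and HXT14 (-0.32 ± 0.10) among the falls. Of the 15 genes, 4 were measured by probe sets that can bind more than 1 gene, and only 10 lay above background in all 4 arrays. HXT2 did not pass without DMSO replicate 1 or rapamycin replicate 2 (limma adjusted p 0.00201 to 0.0655 over the alternatives). The call for HXT10 was lost without DMSO replicate 1 or either rapamycin array (limma adjusted p 0.0081 to 0.267 over the alternatives). HXT4 did not pass with any 1 of the 4 arrays left out (limma adjusted p 0.00334 to 0.0934 over the alternatives). The call for HXT14 was lost without DMSO replicate 2 or either rapamycin array (limma adjusted p 0.00543 to 0.186 over the alternatives).

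Of 15 glucose-sensing genes 3 rose and 6 fell (3 to 4 without 1 array), with a median of -0.16. The high-glucose sensor RGT2 rose by 1.24 ± 0.08, the corepressor MTH1 by 0.89 ± 0.15 and the receptor GPR1 by 0.52 ± 0.07. The protein kinase A subunit TPK2, the casein kinase YCK2 and RAS2 differed by -0.60 ± 0.07, -0.64 ± 0.08 and -0.58 ± 0.07.

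Most glycogen genes fell. Of 15 genes 11 were lower (8 to 10 without 1 array) and 2 higher, with a median of -0.89 against -0.02 over all genes. GSY1, a glycogen synthase, lay at 11.69 and 11.61 in the DMSO arrays and 8.13 and 8.27 in the rapamycin arrays, a 10.9-fold fall. Its isozyme GSY2, the major synthase of stationary cells, differed by -0.89 ± 0.24. The phosphoglucomutases PGM2 and PGM1, which feed the pathway, differed by -1.69 ± 0.15 and -1.14 ± 0.08, the primer glycogenin GLG1 by -1.22 ± 0.11, and UGP1, which makes UDP-glucose, by -0.90 ± 0.12. The degrading phosphorylase GPH1 fell too (-0.94 ± 0.19), so enzymes of synthesis and breakdown were both lower. The genes that rose were the debranching enzyme GDB1 (0.70 ± 0.11) and SGA1 (1.06 ± 0.10), a glucoamylase of sporulating cells. GSY2 did not pass whichever of the 4 arrays was left out (limma adjusted p 7.7e-05 to 0.0942 over the alternatives).

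Trehalose, the other storage sugar, gave smaller differences. Of 8 genes 4 were lower (1 to 2 without 1 array) and 2 higher (1 to 2), with a median of -0.35. The phosphatase subunit TPS2 lay at 12.42 and 12.19 in the DMSO arrays and 11.03 and 10.90 in the rapamycin arrays, a difference of -1.34 ± 0.19. TSL1, TPS1 and the transporter MAL11 differed by -0.93 ± 0.23, -0.33 ± 0.09 and -0.52 ± 0.14. The breakdown enzymes NTH1 and ATH1 rose by 0.75 ± 0.08 and 0.56 ± 0.16. The calls for TSL1 and TPS1 were lost with any 1 of the 4 arrays left out (limma adjusted p 0.000233 to 0.0889 for TSL1 and 0.00249 to 0.147 for TPS1 over the alternatives). MAL11 did not pass without DMSO replicate 1 or rapamycin replicate 1 (limma adjusted p 0.0067 to 0.121 over the alternatives). The call for ATH1 was lost without DMSO replicate 2 or either rapamycin array (limma adjusted p 0.00248 to 0.136 over the alternatives).

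In glycerol metabolism the first enzyme fell while others rose. GPD1, the glycerol 3-phosphate dehydrogenase of the osmotic response, lay at 13.13 and 13.08 in the DMSO arrays and 11.47 and 11.57 in the rapamycin arrays, a difference of -1.59 ± 0.08. Its isozyme GPD2 differed by -0.54 ± 0.18. The phosphatase GPP2, the mitochondrial dehydrogenase GUT2 and the kinase DAK2 rose by 1.32 ± 0.10, 1.31 ± 0.14 and 1.78 ± 0.12, and GCY1 by 0.41 ± 0.08. In all 4 of 11 rose and 2 fell (1 without 1 array), and the median of 0.04 turned to -0.02 without DMSO replicate 2 and to -0.04 without rapamycin replicate 2. GPD2 did not pass with any 1 of the 4 arrays left out (limma adjusted p 0.0022 to 0.214 over the alternatives). The call for GCY1 was lost without DMSO replicate 1 or rapamycin replicate 1 (limma adjusted p 0.000804 to 0.0562 over the alternatives).

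Of 16 genes of the TCA cycle, which oxidises acetyl units in mitochondria, 10 rose and 0 fell, with a median of 0.49. CIT3, a minor citrate synthase, lay at 6.19 and 6.28 in the DMSO arrays and 9.18 and 9.37 in the rapamycin arrays, and CIT1, the main one, rose by 0.91 ± 0.07. All 4 subunits of succinate dehydrogenase rose, SDH2 by 1.01 ± 0.11, SDH1 by 0.89 ± 0.08, SDH3 by 0.75 ± 0.08 and SDH4 by 0.61 ± 0.07. SHH3, a homologue of SDH3, was among the largest rises of all genes, at 5.31 and 5.22 against 9.52 and 9.93 (DMSO against rapamycin). The isocitrate dehydrogenase subunits IDH1 and IDH2 differed by -0.11 ± 0.07 and -0.14 ± 0.08 and did not pass.

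Genes for the import of proteins into mitochondria fell. Of 33 genes of the import machinery 24 were lower and 1 higher, with a median of -0.33, but only 8 to 11 were lower without 1 array. TOM5, a small subunit of the outer membrane channel, lay at 12.07 and 11.98 in the DMSO arrays and 11.03 and 11.07 in the rapamycin arrays, and TIM50 of the inner membrane channel at 11.32 and 11.36 against 10.58 and 10.52 in the same order. The groups lay apart for both, as for every called gene. The nucleotide exchange factor MGE1 differed by -0.79 ± 0.10, the receptor TOM70 by -0.61 ± 0.08 and the barrel assembly gene SAM50 by -0.58 ± 0.10. The 1 gene that rose was MAS1 (0.32 ± 0.07), a subunit of the presequence protease. MAS1 did not pass whichever of the 4 arrays was left out (limma adjusted p 0.00281 to 0.0987 over the alternatives).

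Peroxisomal genes were mixed. Of 43 genes 13 rose, 6 fell (3 to 5 without 1 array) and 24 did not pass, with a median of 0.09 that became -0.02 without the third of genes lowest in mean level. The fatty acid oxidation enzymes POX1 and POT1 lay at 5.02 and 5.11 against 7.12 and 7.25 and 4.49 and 4.52 against 6.77 and 6.64 (DMSO against rapamycin). The multifunctional enzyme FOX2 of the same pathway differed by -0.12 ± 0.07 and did not pass. The import co-receptors PEX21 and PEX18 rose by 1.995 ± 0.17 and 0.89 ± 0.09, and the transcription factor PIP2 by 1.08 ± 0.14. PEX31 and PEX17 differed by -0.71 ± 0.08 and -0.63 ± 0.10.

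Enzymes that make and use one-carbon units on folate fell more often than they rose. Of 22 genes 12 were lower (9 to 10 without 1 array), 7 of them at least 2-fold, and 4 were higher, with a median of -0.34. GCV1, a subunit of the glycine cleavage complex, lay at 12.93 and 12.88 in the DMSO arrays and 9.20 and 9.42 in the rapamycin arrays, a 12.1-fold fall. The other subunits GCV2 and GCV3 lay at 12.82 and 12.46 against 10.06 and 10.24 and 13.71 and 13.67 against 12.16 and 12.38 (DMSO against rapamycin). LPD1, a subunit that the complex shares with other dehydrogenases, differed by 0.15 ± 0.07 and did not pass. The 3 subunits particular to the complex were thus all called lower.

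Within the folate cycle the largest falls were those of the cytosolic enzymes SHM2 and MTD1. SHM2, the cytosolic serine hydroxymethyltransferase, lay at 14.06 and 14.02 in the DMSO arrays and 11.15 and 11.31 in the rapamycin arrays, while mitochondrial SHM1 differed by 0.15 ± 0.06 and did not pass. MTD1, a cytosolic methylenetetrahydrofolate dehydrogenase, lay at 13.22 and 13.32 against 10.19 and 10.15 in the same order. The trifunctional synthases MIS1 (mitochondrial) and ADE3 (cytosolic) differed by -0.54 ± 0.11 and -0.13 ± 0.10, the latter without passing. On the way to serine, SER2 and SER1 differed by -1.496 ± 0.07 and -0.74 ± 0.08. The isozymes of the first step went opposite ways, SER33 by -1.04 ± 0.08 and SER3 by 1.98 ± 0.12, from 10.33 and 10.35 against 12.37 and 12.28. The other genes that rose were AGX1 (1.66 ± 0.09), which makes glycine from glyoxylate, the reductase MET13 (0.91 ± 0.15) and FOL2 (0.30 ± 0.08) of folate synthesis. The call for MIS1 was lost without DMSO replicate 1 or rapamycin replicate 2 (limma adjusted p 0.000548 to 0.0642 over the alternatives). FOL2 did not pass without any single DMSO or rapamycin array (limma adjusted p 0.00297 to 0.123 over the alternatives).

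Purine synthesis fell along most of its steps. Of 27 genes 13 were lower, 8 of them at least 2-fold, and 5 were higher (1 to 2 without 1 array), with a median of -0.14. ADE17, which carries out the final steps to IMP, lay at 14.22 and 14.10 in the DMSO arrays and 11.48 and 11.62 in the rapamycin arrays, a 6.1-fold fall. Its isozyme ADE16 differed by -0.07 ± 0.09 and did not pass. The carboxylase ADE2 lay at 13.49 and 13.46 against 11.08 and 11.21 (DMSO against rapamycin). ADE1, ADE8, ADE4, ADE13 and ADE6 differed by -1.99 ± 0.08, -1.82 ± 0.10, -1.69 ± 0.09, -1.66 ± 0.07 and -1.36 ± 0.13. Both rapamycin arrays lay below both DMSO arrays for each of these enzymes that passed, as for every gene called lower.

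Beyond IMP, genes of both branches, to AMP and to GMP, fell. ADE12 of the AMP branch differed by -0.84 ± 0.07, and the IMP dehydrogenases IMD2, IMD3 and IMD4 of the GMP branch by -1.39 ± 0.18, -0.58 ± 0.09 and -0.93 ± 0.08. IMD3 and IMD4 are close copies whose probe sets may share signal. GUA1, the last enzyme of that branch, differed by -0.10 ± 0.07 and did not pass. BAS1, which encodes an activator of the purine and glycine cleavage genes, rose by 1.12 ± 0.08, while its partner PHO2 differed by -0.08 ± 0.07 and did not pass. The other rises were AAH1 (0.56 ± 0.12), an adenine deaminase, ADO1 (0.25 ± 0.06), an adenosine kinase, the purine permease FCY2 (0.24 ± 0.07) and PRS3 (0.24 ± 0.07). The call for AAH1 was lost without rapamycin replicate 1 (limma adjusted p 0.00285 to 0.0523 over the alternatives). ADO1, FCY2 and PRS3 did not pass with any 1 of the 4 arrays left out (limma adjusted p 0.0016 to 0.108 for ADO1, 0.00409 to 0.164 for FCY2 and 0.00813 to 0.181 for PRS3 over the alternatives).

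**Figure D3:**
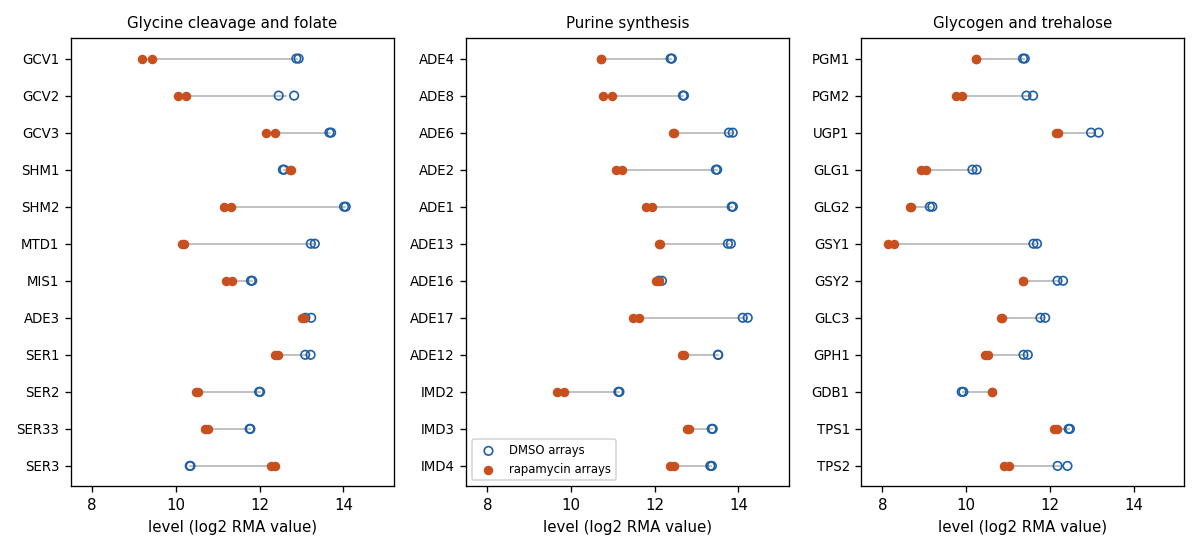
Levels (log2 RMA value) of 12 genes each of glycine cleavage and folate, purine synthesis, and glycogen and trehalose, in the 2 DMSO arrays (open blue circles) and the 2 rapamycin arrays (filled orange circles), with grey lines between group means. The genes drawn were picked from longer lists, so the panels do not give the share of either direction. Of 27 purine genes 13 were called lower and 5 higher, and none of those 5 is drawn. The rises AGX1, MET13, FOL2, SGA1, NTH1 and ATH1 are not drawn either. Most genes drawn lie to the left after rapamycin, SER3 and GDB1 lie to the right, and SHM1, ADE3 and ADE16 barely move.

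Pyrimidine genes moved in both directions. Of 14 genes 4 rose and 6 fell, and the median of 0.06 became -0.05 without the third of genes lowest in mean level. FUR1, which salvages uracil, differed by -1.44 ± 0.11, URA4 of the main pathway by -0.85 ± 0.06, the CTP synthase URA8 by -0.76 ± 0.10 and the uracil permease FUR4 by -0.70 ± 0.09. URA3, listed instead with the genes that BY4741 lacks, differed by -1.29 ± 0.07 and is not in these counts. URA10, the minor orotate phosphoribosyltransferase, rose by 1.503 ± 0.09, while its major isozyme URA5 differed by -0.05 ± 0.07 and did not pass. The activator PPR1, the uridine permease FUI1 and the kinase URK1 rose by 0.62 ± 0.08, 0.54 ± 0.08 and 0.48 ± 0.09. The call for URK1 was lost without rapamycin replicate 2 (limma adjusted p 0.00178 to 0.0517 over the alternatives).

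Arginine synthesis rose across its enzymes. Of 11 genes 10 were higher (8 without 1 array) and 0 lower, with a median of 0.92. The permease CAN1 lay at 10.42 and 10.40 in the DMSO arrays and 12.45 and 12.44 in the rapamycin arrays. CPA1, a subunit of the carbamoyl phosphate synthetase for arginine, rose by 1.64 ± 0.12, and ARG4, ARG1 and ARG3 of the later steps by 1.21 ± 0.09, 1.07 ± 0.06 and 0.85 ± 0.08. ARG80, a regulator of both synthesis and breakdown, rose by 1.30 ± 0.15. In the lysine pathway 7 of 10 genes rose (4 to 6 without 1 array) and 1 fell (0 without 1 array), with a median of 0.45. LYS1, the last enzyme, and the activator LYS14 rose by 0.98 ± 0.08 and 0.84 ± 0.09, and LYS9 differed by -0.40 ± 0.10. LYS9 did not pass whichever of the 4 arrays was left out (limma adjusted p 0.00108 to 0.103 over the alternatives).

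Histidine synthesis went the other way. Of 11 genes of histidine synthesis and the Gcn4 system 6 fell and 2 rose (1 to 2 without 1 array), with a median of -0.45. HIS6 lay at 10.23 and 10.27 in the DMSO arrays and 9.30 and 9.16 in the rapamycin arrays, and HIS4, HIS5 and HIS1 differed by -0.97 ± 0.12, -0.88 ± 0.14 and -0.61 ± 0.07. GCN4, the activator of amino acid synthesis genes, rose by 0.47 ± 0.06 and HIS2 by 0.56 ± 0.11. The call for HIS2 was lost without rapamycin replicate 2 (limma adjusted p 0.000345 to 0.0577 over the alternatives).

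Branched-chain synthesis genes moved in both directions. Of 12 genes 5 rose (3 to 4 without 1 array) and 4 fell (2 to 4), with a median of 0.19. LEU4, the main isopropylmalate synthase, lay at 12.36 and 12.39 in the DMSO arrays and 13.71 and 13.75 in the rapamycin arrays, and its isozyme LEU9 at 11.39 and 11.47 against 9.20 and 9.26 in the same order, so they moved in opposite directions. The transaminases did likewise, cytosolic BAT2 by 1.23 ± 0.06 and mitochondrial BAT1 by -0.49 ± 0.07. The acetolactate synthase ILV2 rose by 0.75 ± 0.11, and OAC1 and ILV6 by 0.52 ± 0.13 and 0.21 ± 0.07, while ILV5 and ILV3 differed by -0.49 ± 0.11 and -0.37 ± 0.08. OAC1 did not pass without DMSO replicate 1 or either rapamycin array (limma adjusted p 0.00128 to 0.11 over the alternatives). The call for ILV6 was lost whichever of the 4 arrays was left out (limma adjusted p 0.0141 to 0.217 over the alternatives). ILV5 and ILV3 did not pass without DMSO replicate 2 or rapamycin replicate 1 (limma adjusted p 0.000821 to 0.0803 for ILV5 and 0.00364 to 0.0773 for ILV3 over the alternatives).

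For aromatic amino acids, 7 of 17 genes rose (4 without 1 array) and 4 fell. The median of 0.01 became -0.02 after quantile normalization of the tested genes. The falls were largest in breakdown: ARO10, a decarboxylase, lay at 10.78 and 10.44 in the DMSO arrays and 8.06 and 8.33 in the rapamycin arrays and the transaminase ARO9 at 11.36 and 11.17 against 9.11 and 9.33. TAT1, a tyrosine and tryptophan permease, differed by -0.71 ± 0.07, and the chorismate synthase ARO2 by -0.32 ± 0.07. Among the rises, the tryptophan enzymes TRP5 and TRP4 and the tyrosine enzyme TYR1 rose by 0.73 ± 0.11, 0.53 ± 0.08 and 0.51 ± 0.07. The call for ARO2 was lost without DMSO replicate 2 or either rapamycin array (limma adjusted p 0.00216 to 0.077 over the alternatives).

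Sulfate and methionine genes moved in both directions in equal number. Of 34 genes 11 rose and 11 fell, against 26.5% higher and 26.2% lower among all genes tested. The median of 0.03 became -0.07 after quantile normalization of the tested genes. The regulators MET28, MET30 and MET4 rose by 2.01 ± 0.18, 1.997 ± 0.08 and 1.04 ± 0.17. MET2 and the sulfite reductase subunit MET10 rose by 1.64 ± 0.17 and 1.24 ± 0.08, and the sulfate permease SUL1 by 0.87 ± 0.06. MET6, the methionine synthase that takes its methyl group from folate, lay at 12.75 and 12.61 in the DMSO arrays and 11.26 and 11.30 in the rapamycin arrays. The S-adenosylmethionine synthetases SAM1 and SAM2 differed by -1.39 ± 0.10 and -0.86 ± 0.10. The methionine permease MUP3 lay at 10.96 and 11.12 against 8.80 and 9.01 (DMSO against rapamycin), and the S-methylmethionine permease MMP1 differed by -1.28 ± 0.09.

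Vitamin genes rose more often than they fell. Of 27 genes 17 were higher and 5 lower (4 without 1 array), with a median of 0.53. In biotin synthesis, BIO2, BIO3, BIO4 and BIO5 rose by 1.31 ± 0.11, 1.27 ± 0.09, 0.77 ± 0.10 and 0.77 ± 0.12, and the biotin permease VHT1 by 0.83 ± 0.08. In vitamin B6 synthesis, SNO1 and SNZ1 rose by 1.99 ± 0.18 and 0.69 ± 0.12. The NAD synthesis genes BNA4 and BNA6 differed by -1.75 ± 0.10 and -1.23 ± 0.07, the nicotinic acid permease TNA1 by -0.50 ± 0.09 and BNA3 by -0.22 ± 0.07. PHO3, an acid phosphatase that acts on thiamine phosphates, lay at 11.85 and 11.94 in the DMSO arrays and 9.70 and 9.55 in the rapamycin arrays. BNA3 did not pass whichever of the 4 arrays was left out (limma adjusted p 0.0146 to 0.235 over the alternatives).

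Ribosomal protein genes fell by small amounts, in both subunits. Of 75 genes of the cytosolic large subunit 59 were lower (33 to 35 without 1 array) and 0 higher, with a median of -0.36. Of 52 of the small subunit 41 were lower (22 to 24) and 0 higher, with a median of -0.34. RPL9A lay at 13.71 and 13.67 in the DMSO arrays and 12.54 and 12.41 in the rapamycin arrays, while its copy RPL9B differed by 0.24 ± 0.09 and did not pass. RPS14B and RPS22B differed by -0.96 ± 0.12 and -0.93 ± 0.07. Of these genes, 12 of the large and 13 of the small subunit were measured by probe sets that can bind more than 1 gene. Of 66 mitochondrial ribosomal protein genes 29 were lower (10 to 13 without 1 array) and 2 higher (0), with a median of -0.20. MRPL19 differed by -0.87 ± 0.09 and MRPL39 by -0.57 ± 0.10, while RSM22 and MRPL10 were the rises at 0.28 ± 0.07 and 0.22 ± 0.07. The calls for RSM22 and MRPL10 were lost with any 1 of the 4 arrays left out (limma adjusted p 0.0056 to 0.117 for RSM22 and 0.0189 to 0.249 for MRPL10 over the alternatives).

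Genes that control the ribosomal programme did not follow it down. Of 10 such regulators 9 rose (6 to 7 without 1 array) and 0 fell, with a median of 0.53. TOD6, a repressor of ribosome biogenesis genes, lay at 8.91 and 9.28 in the DMSO arrays and 10.42 and 10.59 in the rapamycin arrays. IFH1, the coactivator of ribosomal protein genes, rose by 0.87 ± 0.07, its competitor CRF1 by 0.72 ± 0.10 and FHL1, which recruits both, by 0.45 ± 0.07. SFP1 and the kinase SCH9, which TORC1 phosphorylates, rose by 0.61 ± 0.09 and 0.65 ± 0.10. Repressors and activators therefore rose together.

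RNA polymerases I and III, which make ribosomal and transfer RNA, were mixed. Among all genes tested, 26.5% were higher and 26.2% lower. Of 36 genes 8 rose (4 to 5 without 1 array) and 8 fell (3 to 5), with a median of -0.10. RRN3, the initiation factor of polymerase I that TORC1 regulates, lay at 8.81 and 9.09 in the DMSO arrays and 10.15 and 10.26 in the rapamycin arrays, and RRN11 rose by 0.64 ± 0.09. The polymerase III subunits RPC17 and RPC31 differed by -0.82 ± 0.12 and -0.70 ± 0.07. RPA190, the largest subunit of polymerase I, and MAF1, the repressor of polymerase III, differed by -0.10 ± 0.06 and -0.12 ± 0.08 and did not pass.

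The listed genes of TORC1 and its upstream complexes changed by less than 2-fold, while some effectors rose further. EGO4, which was not in the list, fell by more (-2.89 ± 0.14). Of 16 genes of TORC1, the EGO complex and their regulators 9 rose (4 to 6 without 1 array) and 3 fell (1), with a median of 0.31. IML1, part of a complex that inhibits TORC1, rose by 0.98 ± 0.09, and the TORC1 subunits LST8 and KOG1 by 0.97 ± 0.12 and 0.51 ± 0.07. TOR1 itself differed by 0.17 ± 0.10 and did not pass. The falls were EGO2 (-0.41 ± 0.06), MEH1 (-0.23 ± 0.07) and VAM6 (-0.48 ± 0.12), the first pair of them EGO subunits. Of 20 effectors 7 rose (4 to 5 without 1 array) and 1 fell, with a median of 0.07, and the phosphatase gene PPH3 and the regulator SAP185 rose by 1.11 ± 0.14 and 1.02 ± 0.08. The largest rise among the effectors was that of NPR1 (1.55 ± 0.08). In all 3 of the 20 rose at least 2-fold, against 5.98% of all genes. The 1 fall was YPK3 (-0.44 ± 0.10), a kinase of ribosomal protein S6. MEH1 and VAM6 did not pass without any single DMSO or rapamycin array (limma adjusted p 0.00987 to 0.177 for MEH1 and 0.000618 to 0.098 for VAM6 over the alternatives). The call for YPK3 was lost without DMSO replicate 1 or either rapamycin array (limma adjusted p 0.000864 to 0.0788 over the alternatives).

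Genes of stress transcription and protein kinase A rose more often than they fell. Of 22 genes 14 were higher, 9 of them at least 2-fold, and 4 were lower (1 to 2 without 1 array), with a median of 0.81. DDR2, a stress-induced gene, lay at 11.12 and 10.87 in the DMSO arrays and 13.20 and 13.21 in the rapamycin arrays, and the repressor XBP1 at 6.65 and 6.41 against 8.69 and 8.64 in the same order. MSN4 rose by 1.30 ± 0.07, while its partner MSN2 differed by 0.18 ± 0.11 and did not pass. RIM15 rose by 0.53 ± 0.08 and the cyclic AMP phosphodiesterases PDE2 and PDE1 by 1.28 ± 0.09 and 0.98 ± 0.06. IGO2, a target of Rim15, differed by -0.66 ± 0.11, and the kinase YAK1, GIS1 and SPI1 by -0.55 ± 0.14, -0.48 ± 0.11 and -0.40 ± 0.10. YAK1 and SPI1 did not pass with any 1 of the 4 arrays left out (limma adjusted p 0.00028 to 0.0977 for YAK1 and 0.000924 to 0.0972 for SPI1 over the alternatives). The call for GIS1 was lost without DMSO replicate 1 or rapamycin replicate 2 (limma adjusted p 0.00125 to 0.0736 over the alternatives).

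Chaperone and heat shock genes moved in both directions. Of 40 genes 13 rose (10 without 1 array), 4 fell (1 to 2) and 23 did not pass, with a median of -0.03. HSP26 lay at 11.65 and 11.38 in the DMSO arrays and 13.56 and 13.51 in the rapamycin arrays and HSP30, a membrane heat shock protein, at 13.32 and 13.26 against 11.42 and 11.11. HSP31 and SSA3 rose by 1.21 ± 0.15 and 1.06 ± 0.11. HSP104, the disaggregase, and HSP82 differed by -0.20 ± 0.11 and -0.31 ± 0.12 and did not pass. The other falls were CCT7 (-0.32 ± 0.10), CCT3 (-0.23 ± 0.07) and STI1 (-0.29 ± 0.08). CCT7 and CCT3 did not pass whichever of the 4 arrays was left out (limma adjusted p 0.0027 to 0.159 for CCT7 and 0.01 to 0.217 for CCT3 over the alternatives). The call for STI1 was lost without either DMSO array or rapamycin replicate 1 (limma adjusted p 0.00983 to 0.18 over the alternatives).

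Antioxidant genes showed both directions, 8 rises and 10 falls (3 to 5 without 1 array) of 31, with a median of 0.12. Among all genes tested, 26.5% were higher and 26.2% lower. The sulfiredoxin SRX1 and the glutathione transferase GTT1 rose by 1.64 ± 0.16 and 1.52 ± 0.08, and the transcription factor YAP1 by 0.84 ± 0.07. The peroxidases GPX2 and GPX1 differed by -1.78 ± 0.09 and -0.84 ± 0.11, and GRX4, an iron-sensing glutaredoxin, by -1.03 ± 0.08. TSA1, the main peroxiredoxin, differed by 0.00 ± 0.06 and did not pass.

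Autophagy genes mostly did not pass. Of 33 genes 9 rose (6 to 7 without 1 array), 3 fell and 21 did not pass, and the median of 0.05 became -0.06 after quantile normalization of the tested genes. ATG32, the receptor for mitochondria, lay at 8.92 and 8.70 in the DMSO arrays and 10.23 and 10.35 in the rapamycin arrays, and the vacuolar amino acid exporter ATG22 rose by 1.21 ± 0.09. ATG8 rose by 0.59 ± 0.12, but its call was lost without DMSO replicate 1 or rapamycin replicate 1. ATG1, the kinase that starts the process, and ATG13, its partner and a TORC1 target, differed by 0.35 ± 0.13 and -0.05 ± 0.08 and did not pass. ATG1 did pass with the 4 DMSO and rapamycin arrays alone or with the replicate added as a block. ATG5, ATG27 and ATG18 differed by -0.88 ± 0.07, -0.79 ± 0.07 and -0.50 ± 0.09. The proteasome barely moved: of 37 genes 32 did not pass, 3 rose (1 without 1 array) and 2 fell (0), and the median of 0.00 took either sign under scaling. RPN4, the activator of proteasome genes, rose by 1.37 ± 0.09, while RPT1, RPN5, RPT6 and RPN13 differed by 0.21 ± 0.06, 0.20 ± 0.06, -0.26 ± 0.07 and -0.34 ± 0.10. RPT1, RPN5, RPT6 and RPN13 did not pass without any single DMSO or rapamycin array (limma adjusted p 0.00838 to 0.206 for RPT1, 0.0189 to 0.244 for RPN5, 0.00999 to 0.178 for RPT6 and 0.00464 to 0.169 for RPN13 over the alternatives).

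The vacuolar ATPase, which acidifies the vacuole, and the nuclear pore changed little. Of 20 genes of the ATPase 2 rose (1 to 2 without 1 array) and 4 fell (1 to 2), with a median of -0.07. VMA21, an assembly factor, differed by -0.65 ± 0.07 and VMA13 by 0.41 ± 0.07, and the other calls were VMA1 (0.45 ± 0.09), VMA16 (-0.34 ± 0.07), VMA9 (-0.32 ± 0.08) and VPH2 (-0.29 ± 0.07). Of 29 nuclear pore genes 2 rose (0 to 1 without 1 array) and 6 fell (3 to 4), with a median of -0.07. NUP49 and GLE2 differed by -0.53 ± 0.06 and -0.50 ± 0.07, and NUP100 and NSP1 were the rises at 0.47 ± 0.09 and 0.29 ± 0.08. The call for VMA1 was lost without DMSO replicate 2 or rapamycin replicate 1 (limma adjusted p 0.000888 to 0.0653 over the alternatives). VMA16 did not pass without DMSO replicate 2 or rapamycin replicate 2 (limma adjusted p 0.000951 to 0.0626 over the alternatives). The calls for VMA9, VPH2 and NSP1 were lost without any single DMSO or rapamycin array (limma adjusted p 0.00205 to 0.0914 for VMA9, 0.00489 to 0.123 for VPH2 and 0.00468 to 0.149 for NSP1 over the alternatives). NUP100 did not pass without DMSO replicate 2 (limma adjusted p 0.000654 to 0.0511 over the alternatives).

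Sphingolipid genes fell more often than they rose. Of 25 genes 13 were lower (9 to 10 without 1 array) and 3 higher (1 to 2), with a median of -0.27. RSB1, which moves sphingoid bases, lay at 8.89 and 8.75 in the DMSO arrays and 6.94 and 7.03 in the rapamycin arrays, and the ceramidase YPC1 at 10.75 and 10.63 against 9.26 and 9.27 in the same order. The ceramide synthase LAG1 and the elongases ELO2 and ELO3 differed by -0.87 ± 0.09, -0.82 ± 0.07 and -0.58 ± 0.07. ORM1 and ORM2, which restrain the first enzyme, differed by -0.60 ± 0.07 and -0.46 ± 0.07. The rises were LCB5 (0.61 ± 0.07), SUR2 (0.37 ± 0.09) and SCS7 (0.28 ± 0.07). The call for SUR2 was lost without DMSO replicate 1 or either rapamycin array (limma adjusted p 0.00436 to 0.109 over the alternatives). SCS7 did not pass without any single DMSO or rapamycin array (limma adjusted p 0.00448 to 0.116 over the alternatives).

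Ergosterol and phospholipid genes had no common direction. Among all genes tested, 26.5% were higher and 26.2% lower. Of 32 ergosterol genes 8 rose (5 without 1 array) and 9 fell (3), and the median of 0.02 fell below 0 without the third of genes lowest in mean level. The acyltransferase ARE2, which stores sterols, lay at 10.07 and 9.85 in the DMSO arrays and 8.59 and 8.57 in the rapamycin arrays, and ERG13 of the first steps differed by -0.78 ± 0.07. The epoxidase ERG1 and the sterol uptake regulator SUT1 rose by 0.67 ± 0.06 and 0.71 ± 0.13. Of 23 phospholipid genes 4 rose (2 to 3 without 1 array) and 6 fell (3 to 5), with a median of -0.03. The methyltransferases of phosphatidylcholine synthesis went opposite ways, CHO2 by -1.08 ± 0.14 and OPI3 by 1.47 ± 0.08. The inositol enzyme INO1 rose by 1.04 ± 0.10, INO2 by 0.75 ± 0.21 and EKI1 by 0.38 ± 0.10, and the decarboxylase PSD1 differed by -0.95 ± 0.11. The call for INO2 was lost whichever of the 4 arrays was left out (limma adjusted p 0.000512 to 0.129 over the alternatives). EKI1 did not pass without DMSO replicate 2 or either rapamycin array (limma adjusted p 0.00534 to 0.131 over the alternatives).

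In the iron regulon HMX1 stood apart. This heme oxygenase gene lay at 7.34 and 7.19 in the DMSO arrays and 10.37 and 10.47 in the rapamycin arrays, an 8.91-fold rise. Of 29 genes 11 rose (7 to 9 without 1 array) and 8 fell, with a median of 0.20. The activators AFT1 and AFT2 rose by 0.78 ± 0.07 and 0.71 ± 0.14 and the siderophore transporter SIT1 by 1.09 ± 0.09. Another siderophore transporter, ENB1, and the reductases FRE2, FRE3 and FRE4 differed by -1.72 ± 0.13, -1.30 ± 0.17, -1.08 ± 0.16 and -1.08 ± 0.16. FET3 and FTR1, the high-affinity iron uptake pair, differed by 0.19 ± 0.08 and 0.15 ± 0.09 and did not pass. Of 13 genes for copper and zinc 6 rose (4 to 5 without 1 array) and 3 fell, with a median of 0.12. The zinc activator ZAP1 and the high-affinity zinc permease ZRT1 rose by 1.22 ± 0.12 and 1.69 ± 0.11. The low-affinity permease ZRT2, the copper permease CTR3 and ZRC1 differed by -0.69 ± 0.11, -1.04 ± 0.12 and -0.34 ± 0.09. The call for ZRC1 was lost without either DMSO array or rapamycin replicate 2 (limma adjusted p 0.00644 to 0.132 over the alternatives).

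Phosphate genes changed in both directions. Of 27 genes 8 were lower and 5 higher (3 to 4 without 1 array), with a median of -0.06. Among all genes tested, 26.2% were lower and 26.5% higher. PHM6 lay at 9.78 and 9.68 in the DMSO arrays and 7.69 and 7.96 in the rapamycin arrays, and the sodium-phosphate permease PHO89 differed by -1.59 ± 0.13. The acid phosphatases PHO11 and PHO5 differed by -0.99 ± 0.11 and -0.56 ± 0.09. The rises were PHM8 (1.29 ± 0.08), the vacuolar phosphatase PHO8 (0.62 ± 0.11), the permeases PHO90 (0.55 ± 0.11), PHO84 (0.28 ± 0.07) and GIT1 (0.65 ± 0.14). PHO84 did not pass whichever of the 4 arrays was left out (limma adjusted p 0.000559 to 0.101 over the alternatives). The call for GIT1 was lost without DMSO replicate 1 or rapamycin replicate 2 (limma adjusted p 0.00202 to 0.0966 over the alternatives).

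Genes of the cell cycle moved by small amounts. Of 51 genes of DNA replication and repair 18 were lower (8 to 11 without 1 array) and 7 higher, with a median of -0.12. The ligase CDC9 lay at 9.77 and 9.65 in the DMSO arrays and 8.53 and 8.59 in the rapamycin arrays, and the sliding clamp POL30 and the clamp loader subunit RFC5 differed by -0.92 ± 0.12 and -0.88 ± 0.09. The origin recognition subunit ORC3 rose by 0.91 ± 0.07. Of 32 genes of mitosis and cytokinesis 15 were higher (6 to 8 without 1 array) and 2 lower, with a median of 0.20. DSE1 and SCW11, expressed in daughter cells, rose by 0.80 ± 0.09 and 0.74 ± 0.07, and FKH1 and CDC11 differed by -0.48 ± 0.09 and -0.41 ± 0.08. FKH1 did not pass without rapamycin replicate 1 (limma adjusted p 0.00262 to 0.0581 over the alternatives). The call for CDC11 was lost without DMSO replicate 2 or rapamycin replicate 2 (limma adjusted p 0.0016 to 0.0604 over the alternatives).

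Of 19 cyclins and Cdk inhibitors 4 rose and 7 fell (2 to 4 without 1 array), and the median of -0.03 became 0.02 without DMSO replicate 2. The S-phase cyclin CLB6 differed by -1.12 ± 0.11 and the inhibitor FAR1 by -0.80 ± 0.14. PCL2, CLN1, PCL5 and CLB1 were the rises, at 0.74 ± 0.09, 0.50 ± 0.06, 0.38 ± 0.06 and 0.27 ± 0.09. CLN3, the upstream G1 cyclin, and SIC1, an inhibitor that accumulates in G1, differed by -0.03 ± 0.22 and -0.04 ± 0.12 and did not pass. Of 10 histone genes 3 fell and 1 rose (0 to 1 without 1 array), with a median of 0.02. The falls were the variant HTZ1 (-0.74 ± 0.07), the linker HHO1 (-0.45 ± 0.08) and HTB2 (-0.41 ± 0.09), and the rise was the centromeric CSE4 (0.50 ± 0.11). CLB1 did not pass with any 1 of the 4 arrays left out (limma adjusted p 0.0155 to 0.225 over the alternatives). The call for HTB2 was lost without either DMSO array or rapamycin replicate 2 (limma adjusted p 0.00183 to 0.0736 over the alternatives). CSE4 did not pass without DMSO replicate 1 or rapamycin replicate 2 (limma adjusted p 0.000984 to 0.0702 over the alternatives).

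The markers of mating type moved as well. The a-factor genes MFA1 and MFA2, the receptor STE2 and the agglutinin AGA2 rose by 0.94 ± 0.15, 1.28 ± 0.15, 1.09 ± 0.11 and 0.97 ± 0.10, although their levels stayed at 8.24 or below. Of the alpha-cell genes, MF(ALPHA)2 lay at 12.36 and 12.57 in the DMSO arrays and 9.55 and 9.49 in the rapamycin arrays, while MF(ALPHA)1 differed by -0.06 ± 0.09 and did not pass. STE3, the a-factor receptor, differed by -1.84 ± 0.09 and HMLALPHA1 by -0.62 ± 0.08. Of the genes that BY4741 lacks, URA3, MET17 and LEU2 differed by -1.29 ± 0.07, -0.76 ± 0.065 and -0.75 ± 0.07 and were called lower. HIS3 differed by -0.23 ± 0.08 and did not pass (adjusted p = 0.0542, limma). It did pass under several alternatives, among them the 4 DMSO and rapamycin arrays alone, quantile normalization and the replicate block. The part of cell type in any other difference was not tested.

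Multidrug genes were mixed, while the called genes of the PAU family, which encode cell wall proteins, all rose. Of 22 multidrug genes 5 rose and 6 fell, with a median of -0.02, against 26.5% higher and 26.2% lower among all genes tested. The polyamine exporter TPO4 differed by -1.25 ± 0.15, the weak acid exporter PDR12 by -1.09 ± 0.20 and the pump PDR5 by -0.53 ± 0.08. The regulator PDR1 and the pump PDR10 rose by 0.64 ± 0.09 and 0.66 ± 0.10, followed by AQR1 (0.52 ± 0.09), TPO1 (0.40 ± 0.07) and TPO2 (0.33 ± 0.09). Of 13 measured genes of the PAU family 8 rose (6 to 7 without 1 array) and 0 fell, with a median of 0.38 that became -0.06 without the third of genes lowest in mean level. These genes are near copies, and 11 of the 13 were measured by probe sets that can bind more than 1 gene. PAU21 and PAU2, at 2.03 ± 0.11 and 1.83 ± 0.09, cannot be told from their relatives here. PAU21 lay at 3.43 and 3.24 in the DMSO arrays, below the background, so the size of its change is poorly measured. The call for TPO2 was lost with any 1 of the 4 arrays left out (limma adjusted p 0.00272 to 0.124 over the alternatives).

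**Figure D4:**
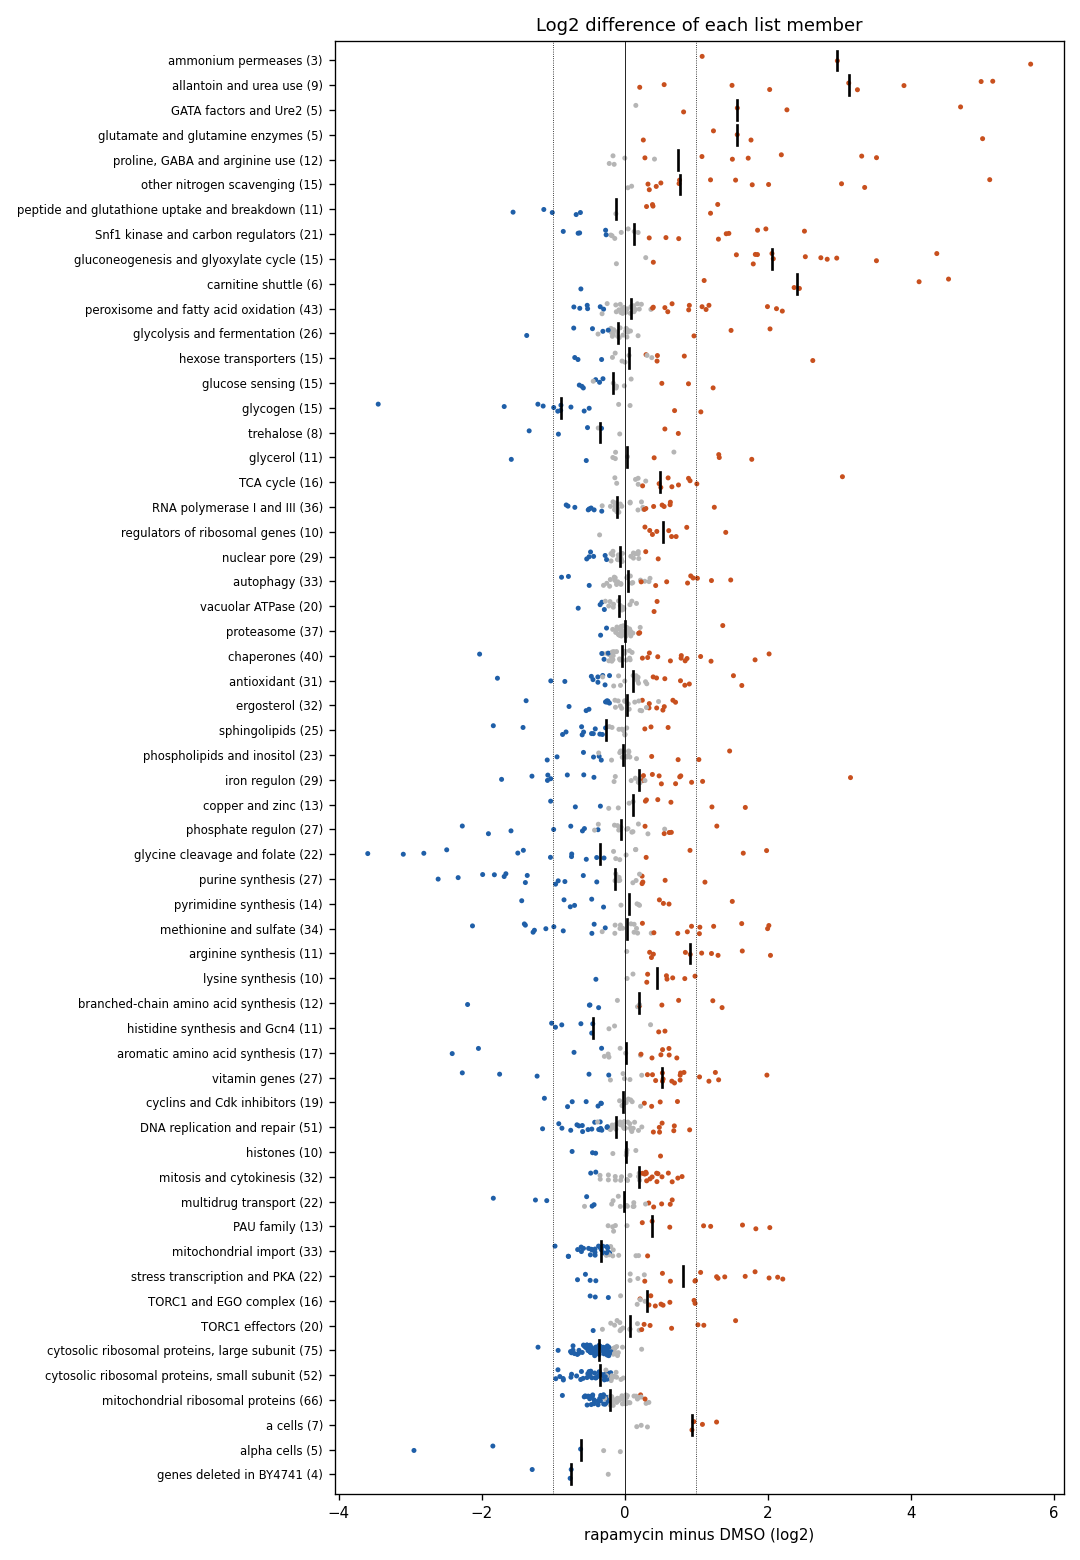
Log2 difference, rapamycin minus DMSO, of every measured member of each list, with the number measured in brackets. Orange points rose and blue points fell at an adjusted p under 0.05, grey points did not pass, black bars are list medians and dotted lines mark 2-fold; nitrogen and gluconeogenic lists lie to the right and glycogen to the left.

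Pairs of related genes often moved unequally. Of 77 pairs of isozymes, duplicates or partner genes measured, 24 passed in 1 direction, 9 in opposite directions, 30 through only 1 of the pair, and 14 did not pass in either. Opposite pairs included NDE1 (-0.36 ± 0.09) and NDE2 (2.32 ± 0.09), the external NADH dehydrogenases of mitochondria, and the acetyl-CoA synthetases ACS1 (1.86 ± 0.08) and ACS2 (-0.37 ± 0.09). The others were LEU4 and LEU9, BAT1 and BAT2, and SER3 and SER33, given above, with ZRT1 and ZRT2 of zinc uptake, the asparagine synthetases ASN1 (0.59 ± 0.07) and ASN2 (-0.38 ± 0.08), the G1 cyclins CLN1 and CLN2 (-0.37 ± 0.08), and the reductases FRE1 (0.26 ± 0.08) and FRE2. Among pairs in which 1 gene moved far and its relative did not pass were PYC1 and PYC2, ADH2 and ADH1 (-0.10 ± 0.06), and the proton pumps PMA2 (2.24 ± 0.20) and PMA1 (0.17 ± 0.08). NDE1, ACS2 and FRE1 did not pass without any single DMSO or rapamycin array (limma adjusted p 0.00198 to 0.11 for NDE1, 0.00129 to 0.101 for ACS2 and 0.0116 to 0.206 for FRE1 over the alternatives). The call for ASN2 was lost without DMSO replicate 2 or either rapamycin array (limma adjusted p 0.00111 to 0.0668 over the alternatives). CLN2 did not pass without either DMSO array or rapamycin replicate 1 (limma adjusted p 0.00208 to 0.0839 over the alternatives).

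**Figure D5:**
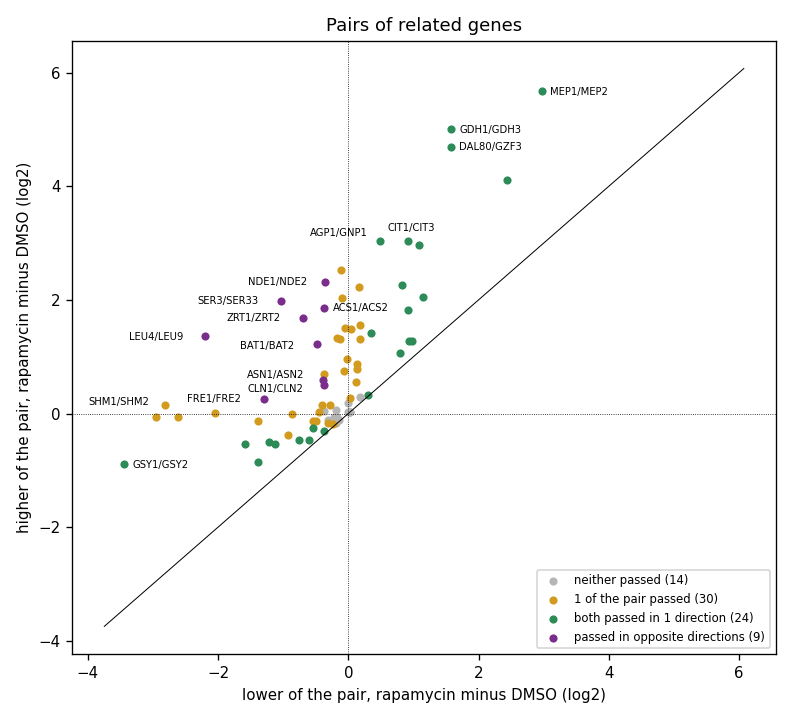
For each of 77 pairs of related genes, the log2 difference (rapamycin minus DMSO) of the higher gene against that of the lower gene. Colours give how many of a pair passed the test and in which direction, and the diagonal marks equal change; 9 purple pairs passed in opposite directions.

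Several of the largest changes lay outside these groups. NCA3, a gene of the SUN family of wall proteins, lay at 8.04 and 8.20 in the DMSO arrays and 12.10 and 12.17 in the rapamycin arrays. RGI2, induced in respiratory growth, rose by 3.54 ± 0.21, and the open reading frame YKR075C by 3.77 ± 0.27. VBA3, a vacuolar permease gene measured by a probe set that can bind more than 1 gene, rose by 3.70 ± 0.08. Among the falls, the open reading frame YOL014W lay at 11.26 and 10.99 in the DMSO arrays and 6.46 and 6.68 in the rapamycin arrays and YDL241W at 11.16 and 11.38 against 7.58 and 7.74. EGO4 and YJL047C-A differed by -2.89 ± 0.14 and -2.51 ± 0.11, and the mannoprotein gene HPF1 by -2.75 ± 0.11. Of 499 genes known only by a systematic name, 43 rose and 15 fell at least 2-fold, against 5.98% and 2.48% of all genes tested.

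Some 2-fold rises were next to each other in the genome. Runs of at least 3 neighbouring tested genes that each rose 2-fold numbered 5, and no such run of falls was found. Besides the DAL genes of chromosome IX, GLT1, UGA3 and UGX2 adjoined on chromosome IV, with UGX2 at 1.31 ± 0.09. On chromosome XI the run was ESL2 (1.29 ± 0.07), PCK1, UBP11 (1.19 ± 0.06) and BAS1. On chromosome XIV it was PBI2, HEF3 and SPO1 (1.12 ± 0.13, 1.98 ± 0.10 and 1.40 ± 0.08), and on chromosome XV LDS2, PSK2 and PEX15 (2.89 ± 0.10, 1.41 ± 0.08 and 1.14 ± 0.07). How many runs chance would place was not tested.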

How the data were processed

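RNA of 6 samples was labelled from 100 ng by the 3′ IVT Express protocol and hybridised to Affymetrix yeast arrays, per the labels. The deposited log2 values were made by the authors with RMA, per the submitters' processing notes, 1 per probe set; its software and settings are not stated in those sources. RMA equalises the distributions of arrays, so a change in total RNA would not show. Of 10928 probe sets, 1746 for S. pombe, 213 controls, 3470 with no gene in the probe table and 1 naming several genes were left out. The other 5498 gave 5449 genes; for 47 genes with several, the probe set with the highest mean over 6 arrays was used. A suffix _s_at or _x_at, for 117 genes, marks probe sets that can bind more than 1 gene. Names came from the probe table, with 12 updated through assembly R64, used for names and neighbours only.

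The fit used lmFit and eBayes of limma 3.58.1 (R 4.3.3) on all 6 arrays, with a mean for each of 3 groups and 3 residual degrees of freedom, two-sided, Benjamini-Hochberg adjusted over all genes, threshold 0.05. The limma fit was tested on simulated data. Tables and figures used Python 3.11.15, pandas 2.3.3, numpy 2.4.6 and matplotlib 3.10.9. The number of arrays limits precision. The members and the 58 lists were chosen with earlier results of these data known, and lists are described by counts and medians without a test. Named genes are the 15 largest rises and 15 largest falls among called genes whose groups do not overlap, up to 2 per direction and list by the same criteria, a fixed set, and members that account for counts of 5 or fewer; other list members named were chosen after their values were seen. Alternatives left out each array, rescaled the arrays, changed the filter, probe set rule, variance prior or threshold, used 4 arrays alone, or added the replicate as a block.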

Additional observations from a re-analysis of the deposited data

Results flagged for a closer look

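Among the 3470 probe sets with no gene in the probe table, 450 exceeded the S. pombe background in at least 1 array, and 30 differed at least 2-fold without overlap, 17 higher and 13 lower after rapamycin. The 3 largest rises among them, each higher in both rapamycin arrays than in both DMSO arrays, follow. The largest rise, probe set 1770587_at, lay at 6.13 and 6.55 in the DMSO arrays and 11.04 and 10.91 in the rapamycin arrays, a difference of 4.64. Probe set 1779784_at lay at 10.33 and 10.37 against 14.26 and 14.35, a difference of 3.96, and 1780022_at at 6.31 and 6.12 against 9.83 and 9.83, a difference of 3.61. No transcript is assigned to them here.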

How the results depend on the processing

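Leaving out each DMSO or rapamycin array in turn gave 1794 to 1820 changed genes (2873 with all), 961 to 1006 higher (1446) and 795 to 854 lower (1427); the lone array is then assumed to vary like the other groups. An adjusted p under 0.01 left 1872 changed and 872 lower. Without the third of genes lowest in mean level, 950 were higher, 175 at least 2-fold higher (326 with all) and 89 at least 2-fold lower (135 with all), with fewer genes tested. The other settings kept each of these counts within 1.5 times, from 2031 to 3698 changed, the last with the 4 DMSO and rapamycin arrays alone. Of 241 named genes called, 203 kept the call and direction under every alternative that gave a value and 38 lost the call without some single array. With the 4 DMSO and rapamycin arrays alone, 7 named genes that were not called passed, ATG1, MSN2, SHM1 and TOR1 among them. Uncalled differences near 0 turned sign: CDC19 ran from -0.0012 to 0.0382 and TDH1 from -0.0062 to 0.0663 over the fits without 1 array, and TDH3 was -0.0002 with each array centred on its median. Replicate differences of DMSO and rapamycin correlated at 0.25, but the labels give no shared culture or day and there are only 2 numbers, so no pairing was assumed; with the replicate block 3195 genes were changed. List medians near 0 that changed sign beyond those named with their list were peptide and glutathione genes (-0.12 to 0.09 without the third of genes lowest in mean level), cyclins (to 0.08 likewise), methionine (to -0.21 likewise), phospholipids (0.005) and multidrug genes (0.01) without DMSO replicate 1, histones with probe sets averaged (-0.04) and hexose transporters above background (-0.02); the cause was not tested. Quantile normalization of the tested genes moved the median of all genes to -0.06, and 2-fold rises to 284 and falls to 156. Signal over background was low for few genes, as 5350 exceeded it in all 4 arrays.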

Other observations

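The array also carries control probe sets for ribosomal RNA, which belong to no comparison above. Rapamycin arrays were lower for the 3′ probe set of the small-subunit rRNA, at 9.74 and 9.15 against 11.29 and 10.91 after DMSO, a difference of -1.65. The probe set for the 5.8S species differed by -1.40 and the 5′ probe set of the large-subunit rRNA by -1.21, each without overlap. The 5′ probe set of the small-subunit rRNA differed by -0.09 and the 3′ probe set of the large-subunit rRNA by -0.07, so probe sets of 1 molecule gave different values. No test was run on these probe sets.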
